A study of Mus musculus with 77 samples.

Results

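The livers compared here came from the *Ireb2* line at ZT12, the light to dark transition of a day in which ZT counts the hours after lights on. Members were chosen by the labels alone, as *Ireb2*-/- or *Ireb2*+/+ liver collected at ZT12. They comprised 6 of the 24 mice of the series, 3 of each genotype, and 12 of its 48 libraries, which GEO lists as 14 of 77 samples because 2 of the 12 libraries were sequenced in 2 runs. Each liver gave 1 ribosome-protected fragment (RPF) library, made from the pieces of mRNA that ribosomes shield from RNase I, and 1 total RNA library from the same lysate.

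All mice were healthy adult males on a C57BL/6J background. The *Ireb2*-/- mice carried the Ireb2tm1.2Mwh allele in the whole body, so hepatocytes, other liver cells and every other organ lacked IRP2 throughout life. The controls are labelled +/+ for IRP2, and the study describes them as matched and of the same background. Whether they carried an engineered allele at another locus is not stated. The other 6 mice of the line, collected at ZT5, were used to estimate the spread between mice and, where stated, to compare the effect of genotype at both timepoints.

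IRP2, the protein made from *Ireb2*, is a cytosolic RNA-binding protein that recognises iron-responsive elements (IREs), short hairpins in the untranslated regions of mRNAs. When iron is scarce, IRP2 and its relative IRP1, the product of *Aco1*, block ribosome loading from an IRE in the 5′ UTR and shield mRNAs from decay through IREs in the 3′ UTR. In iron-replete cells IRP2 is degraded through the ubiquitin ligase subunit FBXL5. The liver stores iron in ferritin, secretes the iron carrier transferrin and makes hepcidin, the hormone that closes the iron exporter ferroportin.

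Values are CPM, counts over the coding sequence (CDS) scaled to library size and by the upper quartile. Translation efficiency (TE) is the log2 ratio of RPF to RNA CPM in 1 liver. Log2 fold changes are those of *Ireb2*-/- over *Ireb2*+/+ from edgeR's quasi-likelihood test, and adjusted p-values are those of that test after Benjamini-Hochberg adjustment, and a gene passed where this was under 0.05. CDS counts ranged from 1317588 to 3649629 in the RNA libraries and from 3987815 to 11061211 in the RPF libraries. Within RNA or RPF each library is a separate mouse, and for TE both libraries of a liver were paired. The p-values therefore set differences against the spread between livers. With 3 against 3 the exact two-sided permutation test cannot go below 0.1.

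All 12 hepatocyte markers were detected in each of the 6 RNA libraries, as were the 17 Kupffer cell, 17 sinusoidal endothelial and 13 stellate cell markers. Of 13 lymphocyte markers 7 were among the genes counted. Of these, 1 was detected in all 6 RNA libraries and 2, *Ptprc* and *Ighm*, were at 0 in all of them. The lymphocyte markers summed to 2.08 to 3.28 CPM in RNA of *Ireb2*-/- and 1.93 to 3.51 CPM in *Ireb2*+/+. In whole liver, fewer cells of a type and less RNA per cell cannot be told apart. Libraries of 2 mice stood apart by mRNAs of the exocrine pancreas. The 12 acinar markers summed to 349.6 CPM in RNA and 1406 CPM in RPF of *Ireb2*-/- replicate 1, against 2.72 to 13.1 CPM in RNA and 2.47 to 18.2 CPM in RPF of the other ZT12 livers, with *Amy2a5* at 0 in RNA throughout. *Ireb2*+/+ replicate 3 at ZT5, which entered only the estimate of spread and the comparison with ZT5, had 14495 CPM in RNA. Counts of genes that passed are therefore also given without these mice.

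Few genes separated the genotypes at ZT12. In RNA, 2 of 10695 genes passed (0.0187%), the pseudogene *Gm5244*, which rose, and *Mup12*, which fell. In RPF, 3 of 10695 passed (0.0281%), *Gm5244* and *Abcd2*, which rose, and *Ireb2*, which fell. In TE, 0 of 10696 genes passed in edgeR, 0 in DESeq2 and 0 in limma. At an unadjusted p under 0.05 there were 450 genes in RNA (4.21%), 815 in RPF (7.62%) and 381 in TE (3.56%), and in TE 165 by DESeq2 and 565 by limma. The 2 groups of 3 livers did not overlap for 9.77% of genes in RNA, 10.6% in RPF and 9.72% in TE.

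Without *Ireb2*-/- replicate 1, 4 genes passed in RNA, 18 in RPF and 0 in TE. Without *Ireb2*+/+ replicate 3 at ZT5 the counts were 3, 4 and 5, and without both mice 9, 16 and 1. The median log2 fold change of all genes was 0.00 in RNA, 0.02 in RPF and 0.01 in TE, with a median standard error of 0.26, 0.21 and 0.30. Over 10694 genes the RNA and RPF log2 fold changes correlated with Pearson's r = 0.548 and Spearman's rho = 0.284, a description across genes from the same livers that includes the acinar mRNAs. For the 3191 genes with an average RNA log2 CPM above 5, these values were 0.915 and 0.582.

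**Figure D1:**
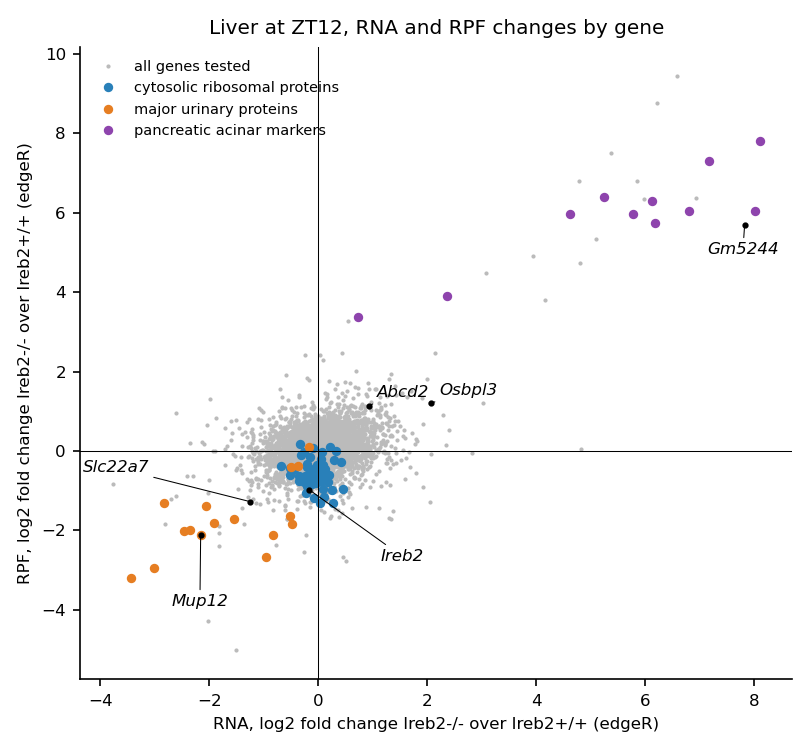
Log2 fold change of *Ireb2*-/- over *Ireb2*+/+ liver at ZT12 in RNA (x axis) and in RPF (y axis), 1 point for each gene tested, with cytosolic ribosomal proteins in blue, major urinary proteins in orange, pancreatic acinar markers in purple and 6 named genes in black. Most genes lie near the origin, the acinar markers lie far to the upper right, the major urinary proteins to the lower left, and the ribosomal proteins are displaced downwards along the RPF axis.

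The targeted gene was examined first. *Ireb2* (chromosome 9, 54862658 to 54912534 in the RefSeq annotation of GRCm38.p6) had an RPF level of 37.8, 32.5 and 41.2 CPM in the 3 *Ireb2*-/- livers and of 77.6, 81.4 and 62.3 CPM in the 3 *Ireb2*+/+ livers. Every knockout liver lay below every control. The log2 fold change was −0.98 (SE 0.13), a level 1.97-fold lower, and passed in edgeR (adjusted p = 0.00278). It also passed with each of the 6 ZT12 mice left out in turn, with log2 fold changes between −1.09 and −0.89, but not when only the 6 ZT12 mice were fitted (edgeR adjusted p = 0.0577).

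*Ireb2* RNA was still present in the knockout. Its level was 116, 115 and 98.9 CPM in *Ireb2*-/- against 141, 136 and 90.8 CPM in *Ireb2*+/+, with overlapping groups and a log2 fold change of −0.16 (SE 0.22). RNA counts over the 3′ UTR of the gene likewise averaged 101 ± 13.4 CPM in *Ireb2*-/- and 101 ± 20.1 CPM in *Ireb2*+/+ (SD, n = 3). The change in the RPF level was therefore also found in TE, which was −1.62, −1.83 and −1.26 in *Ireb2*-/- and −0.86, −0.74 and −0.54 in *Ireb2*+/+. This difference of −0.84 (SE 0.17) had the smallest p of all genes in TE, with groups that did not overlap, but missed the threshold in edgeR (adjusted p = 0.10).

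At ZT5 the same gene differed by −1.33 in TE (SE 0.15, edgeR adjusted p = 1.07e-06) and by −1.0 in RPF (SE 0.13, edgeR adjusted p = 0.00294). The 2 TE effects differed by 0.49 (SE 0.23), which did not pass in edgeR (adjusted p = 0.910). The TE of *Ireb2* at ZT12 did pass in edgeR when only the 6 ZT12 mice were fitted (adjusted p = 3.51e-05) and without *Ireb2*+/+ replicate 3 at ZT5 (adjusted p = 7.65e-06). Residual footprints over the CDS amounted to 422 counts in the knockout livers together, against 1241 in the controls, and the position of these reads within the CDS was not analysed here.

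**Figure D2:**
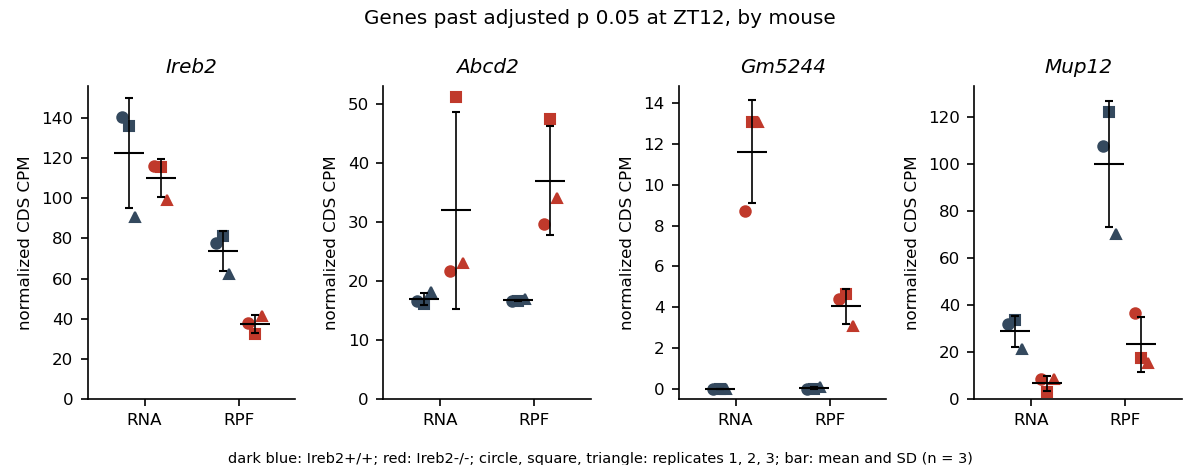
Normalised CDS counts (CPM) of the 4 genes past adjusted p 0.05 in RNA or RPF at ZT12, in *Ireb2*+/+ (dark blue) and *Ireb2*-/- (red) livers, with circles, squares and triangles for replicates 1, 2 and 3 and bars for the mean and SD (n = 3). In RPF the genotypes do not overlap for any of the 4 genes, whereas in RNA *Ireb2* overlaps.

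Genes that neighbour *Ireb2* on chromosome 9 were counted separately. Of 76 genes tested within 5 Mb of it, 0 passed in RNA, RPF or TE in edgeR, and 7.89% in RNA, 10.5% in RPF and 2.63% in TE had an unadjusted p under 0.05, against 4.21, 7.62 and 3.56% of all genes. Of 126 genes within 10 Mb, 0 passed, and 8.73% in RNA, 11.9% in RPF and 3.17% in TE had an unadjusted p under 0.05. These counts are from edgeR with all mice. Of the genes within 10 Mb, *Nxpe2* and *Zbtb16* were among those that passed in RPF in DESeq2. In edgeR, *Nxpe2* passed in RPF without *Ireb2*-/- replicate 1 and *Zbtb16* without *Ireb2*+/+ replicate 2.

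*Abcd2* encodes a peroxisomal ABC transporter that carries very long-chain and unsaturated fatty acids into the organelle. Its RPF level was 29.6, 47.3 and 34 CPM in *Ireb2*-/- against 16.6, 16.6 and 16.8 CPM in *Ireb2*+/+. The controls lay within a narrow range and all knockouts lay above it, with replicate 2 the highest. *Abcd2* rose by 1.14 on the log2 scale (SE 0.16, edgeR adjusted p = 0.00278) and passed with each of the 6 ZT12 mice left out, but not when only those 6 mice were fitted (edgeR adjusted p = 0.0577).

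In RNA, *Abcd2* was at 21.6, 51.2 and 22.9 CPM against 16.6, 16 and 18 CPM. The groups again did not overlap, but the difference of 0.92 (SE 0.28) did not pass (edgeR adjusted p = 0.908), and TE differed by 0.25 (SE 0.23). At ZT5 its RPF difference was 0.51 (SE 0.15) and did not pass. The other 31 tested genes of the peroxisomal fatty acid oxidation list did not pass in any readout, and the list's median log2 fold change was −0.05 in RPF.

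*Gm5244*, a pseudogene on chromosome 19 (12846804 to 12847248 in GRCm38.p6), was outside the rule for named genes and was chosen after its values were seen. Over the CDS column it had 21, 24 and 20 RNA counts in the *Ireb2*-/- livers and 0 in each *Ireb2*+/+ liver. Its pooled RNA level in the knockout was at least 29.7-fold higher than a floor of 3 counts over the control group. It rose in edgeR in RNA (adjusted p = 3.6e-06) and in RPF (adjusted p = 0.00278), where DESeq2 gave it no adjusted p.

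In RPF the 3 knockout libraries held 44 counts and the 3 controls 1 count, a ratio of 69.5 with an exact counting interval of 11.8 to 2806. These intervals cover counting error only. All 6 knockout livers of both timepoints had between 20 and 26 RNA counts and between 4 and 18 RPF counts. In the 18 other livers of the series no RNA or RPF library had more than 1 count over the CDS. Over the 3′ UTR column, RNA counts were 3, 0 and 2 in the *Ireb2*-/- livers at ZT12 and 1, 4 and 2 in the *Ireb2*+/+ livers, so the genotypes overlapped there and the controls were not without reads. Pseudogenes can share reads with the gene they derive from, so the source of these reads is uncertain.

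The major urinary proteins, a family of near-identical lipocalins that hepatocytes of male mice secrete for scent marking, were the list with the lowest medians in RNA and RPF. Their reads cannot be assigned with confidence to single copies. *Mup12* RNA was 8.31, 2.72 and 8.52 CPM in *Ireb2*-/- against 31.6, 33.4 and 21.3 CPM in *Ireb2*+/+, without overlap. It fell by 2.16 on the log2 scale (SE 0.30, edgeR adjusted p = 0.00113), passed without each of the 6 ZT12 mice in turn, and did not pass when counts over all columns of the files were used (edgeR adjusted p = 0.152).

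*Mup12* RPF was 36.6, 17.3 and 15.4 CPM against 107.6, 122.1 and 70.1 CPM. The groups again did not overlap, and the log2 fold change of −2.12 (SE 0.38) did not pass (edgeR adjusted p = 0.246). *Mup3*, the most counted member, was at 2579, 2123 and 2281 CPM in RNA against 3595, 3538 and 2774 CPM, a difference of −0.50 (SE 0.12, edgeR adjusted p = 0.629). For *Mup1* and *Mup16* the RNA differences were −2.46 (SE 0.46) and −2.83 (SE 0.64), again without overlap. Neither passed in edgeR with all mice, and both passed in DESeq2 and in edgeR without *Ireb2*+/+ replicate 3.

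Of the 22 listed *Mup* genes 16 were tested, and all 16 lay below 0 in RNA, against 49.5% of all genes, with a median log2 fold change of −1.73. A single member, *Mup12*, passed in edgeR, 3 passed in DESeq2 or in edgeR without *Ireb2*+/+ replicate 3, 9 had an unadjusted p under 0.05, against 1.74% of all genes that were lower at that level, and 6 did not overlap between the groups, against 4.47% of all genes. In RPF the median was −1.83, with 15 of 16 below 0, 13 lower at an unadjusted p under 0.05 (3.1% of all genes) and 9 without overlap (4.72% of all genes). The exception was *Mup20*, with an RPF difference of 0.09.

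The summed level of these genes was 3028 to 3620 CPM in *Ireb2*-/- and 3861 to 6281 CPM in *Ireb2*+/+ RNA, and 4658 to 5954 against 7514 to 8822 CPM in RPF. Neither range overlapped. The median TE difference was 0.03. The size of the RNA median rested on 1 control liver, since it was −0.52 without *Ireb2*+/+ replicate 2. At ZT5 the medians were −0.58 in RNA and −1.03 in RPF.

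Cytosolic ribosomal proteins, the building blocks of the ribosome, lay lower in RPF and TE of the knockout, with a median near 0 in RNA, although no single member passed. Their mRNAs start with a terminal oligopyrimidine tract, a C followed by a run of pyrimidines, which places their translation under control of growth and feeding signals. To show this feature, 6 ribosomal protein genes are given with the 30 bases from 10 before to 20 after the annotated start, on the coding strand of GRCm38.p6 as given by RefSeq. They were chosen after the values were seen, as those with a tract and the smallest p in TE. Capitals mark the longest run of a C followed by at least 4 pyrimidines.

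Rps7: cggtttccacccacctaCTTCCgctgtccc
Rps26: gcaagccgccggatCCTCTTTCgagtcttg
Rpl14: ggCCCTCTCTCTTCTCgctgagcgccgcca
Rplp2: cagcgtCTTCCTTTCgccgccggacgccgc
Fau: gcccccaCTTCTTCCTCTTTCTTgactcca
Rpl13a: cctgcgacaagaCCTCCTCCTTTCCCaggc

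These windows lie at chr12:28635934-28635963 on the minus strand (*Rps7*), chr10:128626487-128626516 on the minus strand (*Rps26*), chr9:120571507-120571536 (*Rpl14*), chr7:141447641-141447670 (*Rplp2*), chr19:6057937-6057966 (*Fau*) and chr7:45128726-45128755 on the minus strand (*Rpl13a*). Of 65 annotated starts of 54 ribosomal protein genes with an entry, 40 (61.5%) held such a run, searched on the coding strand only, against 4040 of 10938 starts (36.9%) of all tested genes with an entry. Among initiation and elongation factors it was 14 of 49 starts (28.6%). A match of letters is a description of the window and does not show where transcription starts in these livers.

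In RPF, 70 of 74 tested ribosomal protein genes lay below 0, against 45.2% of all genes, with a median log2 fold change of −0.61 beside 0.02 for all genes. None passed in edgeR, 36 were lower at an unadjusted p under 0.05 (3.1% of all genes) and 36 did not overlap between the groups, with the knockout lower (4.72% of all genes). DESeq2 counted 2 of them as passed. In RNA the median was −0.04, 1 gene was lower at an unadjusted p under 0.05 (1.74% of all genes) and 11 of the 74 were lower without overlap (4.47% of all genes). In TE the median was −0.58, with 69 of 74 below 0 (48.2% of all genes), 0 past the threshold in edgeR or DESeq2, 26 lower at an unadjusted p under 0.05 (1.88% of all genes) and 31 without overlap (4.58% of all genes).

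*Rps7*, a protein of the small ribosomal subunit, was at 5.56, 7.73 and 4.83 CPM in RPF of *Ireb2*-/- against 19.0, 15.9 and 7.79 CPM in *Ireb2*+/+, a difference of −1.19 (SE 0.37, edgeR adjusted p = 0.436). Its TE was −1.73, −0.97 and −2.09 in *Ireb2*-/- against −0.15, −0.42 and −0.85 in *Ireb2*+/+, a difference of −1.19 (SE 0.31). In both readouts each knockout liver lay below each control, by a small margin in RPF, and neither difference passed, although that in TE did when only the 6 ZT12 mice were fitted.

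*Rpl36*, a protein of the large subunit, was at 3.22, 2.16 and 2.41 CPM against 6.24, 6.66 and 6.44 CPM in RPF, a difference of −1.31 (SE 0.32). Again the groups did not overlap, and the difference did not pass. Among the 6 genes printed above, the TE differences ranged from −1.19 for *Rps7* to −0.60 for *Rplp2*, and *Fau* and *Rpl13a* overlapped between the groups. At the other end of the list lay *Rpl35* with 0.31, *Rpl38* with 0.20 and *Rpl29* with 0.19, all with overlapping groups. Many ribosomal protein genes have processed pseudogenes, so single values are uncertain.

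Taken per liver, the median TE of the 74 genes minus that of all genes was −0.47, −0.32 and −0.65 in *Ireb2*-/- at ZT12 and 0.32, −0.00 and −0.16 in *Ireb2*+/+ at ZT12. The genotypes did not overlap, although the gap between the highest knockout and the lowest control was smaller than the whole range of the controls. At ZT5 the values were −1.46, −1.40 and −0.80 in *Ireb2*-/- and −1.98, −1.44 and −0.79 in *Ireb2*+/+, with overlapping genotypes. In the *Aco1*+/+ mice at ZT12, wild-type livers of another line, they were −1.0, −0.18 and −0.69, a range that took in all 3 *Ireb2*-/- livers. Wild-type livers of this timepoint thus spread from −1.0 to 0.32.

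The list median in TE stayed between −0.68 and −0.49 without any 1 of the 6 ZT12 mice. When only the 6 ZT12 mice were fitted, 19 genes passed in TE, of which 14 were ribosomal proteins, among them *Rps3* and *Rpl4*. At ZT5 the medians of the list were 0.20 in RNA, 0.35 in RPF and 0.21 in TE, opposite in sign to ZT12, and no member's change with time passed.

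**Figure D3:**
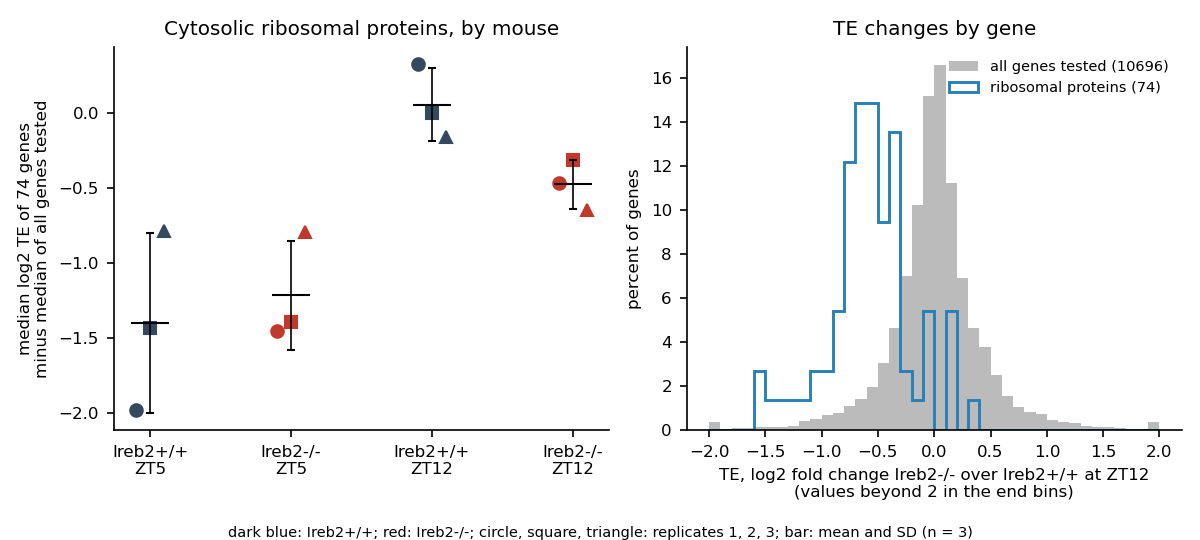
Left, the median log2 TE of 74 cytosolic ribosomal protein genes minus the median of all genes in each liver of the *Ireb2* line, by genotype and timepoint, with circles, squares and triangles for replicates 1, 2 and 3 and bars for mean and SD (n = 3). Right, the percentage of genes by log2 fold change in TE at ZT12 for these genes (blue outline) and for all genes (grey), where the ribosomal proteins centre on −0.58 and all genes on 0.01.

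Initiation and elongation factors, several of whose mRNAs also carry such tracts, lay closer to 0. The median of 47 tested genes was −0.15 in TE, with 36 below 0 (48.2% of all genes), 5 lower at an unadjusted p under 0.05 (1.88% of all genes) and 0 past the threshold in edgeR or DESeq2. The elongation factor *Eef1b2* passed in TE when only the 6 ZT12 mice were fitted. *Eef1g*, a subunit of the elongation factor that recharges eEF1A, was at 9.08, 8.04 and 8.12 CPM in RPF of *Ireb2*-/- against 14.4, 15.1 and 13.2 CPM, a difference of −0.75 (SE 0.23). *Eif3f*, a subunit of the scaffold on which initiation complexes assemble, was at 71.2, 82.0 and 55.7 CPM against 116, 109.1 and 86.7 CPM, a difference of −0.58 (SE 0.18). The genotypes did not overlap in either gene and neither passed.

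The question the knockout was made to address was how transcripts with an IRE behave without IRP2. No transcript with an IRE in the 5′ UTR passed in RNA, RPF or TE at ZT12 in edgeR or DESeq2, among the 6 tested, and the median TE difference was 0.00. For *Ftl1*, the ferritin light chain, TE was −1.18, −2.34 and −2.24 in *Ireb2*-/- against −2.46, −1.55 and −3.23 in *Ireb2*+/+. For *Fth1*, the ferritin heavy chain, it was −0.58, −1.41 and −1.47 against −1.56, −1.20 and −2.32. In both genes replicate 1 was highest among the knockouts, replicate 3 was lowest among the controls, and the groups overlapped.

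The differences in TE were 0.46 (SE 0.76) for *Ftl1* and 0.54 (SE 0.44) for *Fth1*, so the range of 2 standard errors either side of each held both no change and more than a doubling. *Ftl1* RNA was 279, 355 and 305 CPM against 212, 234 and 212 CPM, without overlap, a difference of 0.51 (SE 0.19) that did not pass (edgeR adjusted p = 1). *Fth1* RNA differed by −0.07 (SE 0.14). Copies of *Ftl1* in the genome may share its reads.

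*Slc40a1*, the iron exporter ferroportin, and *Alas2*, the erythroid enzyme that starts heme synthesis, differed in TE by −0.06 (SE 0.12) and −0.01 (SE 0.18). *Epas1*, the hypoxia-inducible factor HIF-2α, had a TE of 0.20, 0.15 and 0.02 in *Ireb2*-/- against 0.32, 0.54 and 0.25 in *Ireb2*+/+. It was the only 1 of the 6 without overlap in TE, with the knockout lower, a difference of −0.25 (SE 0.11, edgeR unadjusted p = 0.0335, adjusted p = 1).

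Among the 3 transcripts with an IRE in the 3′ UTR, *Tfrc*, the transferrin receptor that takes iron into cells, had an RNA level of 35.3, 47.9 and 68.1 CPM in *Ireb2*-/- against 30.1, 20.4 and 50.9 CPM in *Ireb2*+/+. The groups overlapped and differed by 0.63 (SE 0.42). *Slc11a2*, the divalent metal transporter DMT1, had an RPF level of 28.1, 31.5 and 30.3 CPM against 23.8, 22.5 and 25.1 CPM. Here every knockout lay above every control, and the difference of 0.33 (SE 0.14) did not pass (edgeR adjusted p = 0.592). *Cdc42bpa*, a kinase, differed in RNA by −0.11 (SE 0.15).

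**Figure D4:**
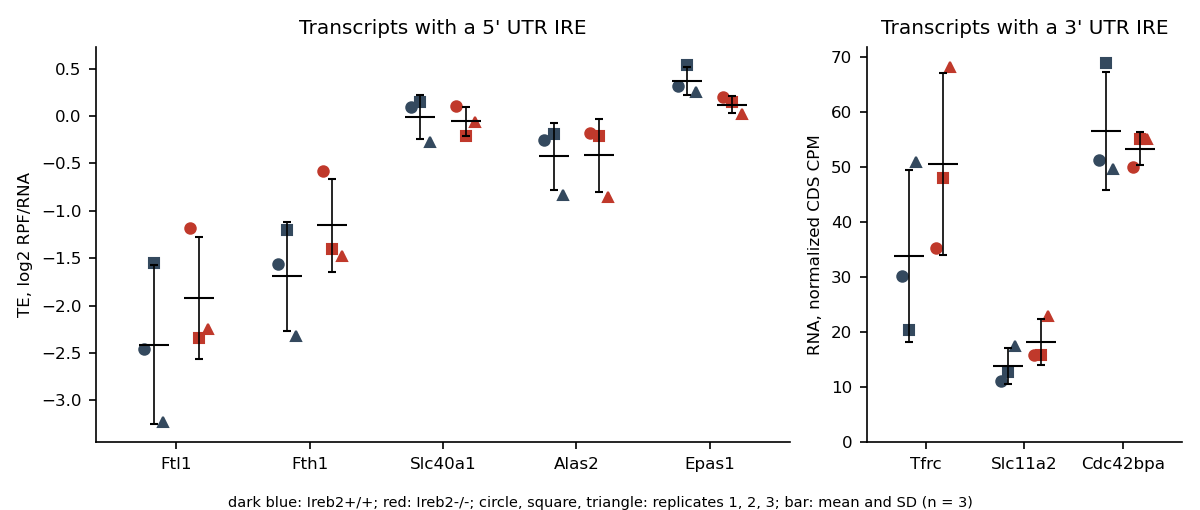
Left, log2 TE of 5 of the 6 tested transcripts with an IRE in the 5′ UTR, and right, RNA in normalised CDS counts (CPM) of the 3 with an IRE in the 3′ UTR, in *Ireb2*+/+ (dark blue) and *Ireb2*-/- (red) livers at ZT12, with circles, squares and triangles for replicates 1, 2 and 3 and bars for mean and SD (n = 3). The groups overlap for every transcript shown but *Epas1*, and the spread between livers is widest for *Ftl1* and *Fth1* on the left and *Tfrc* on the right.

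Of the genes that act on IRP activity, *Aco1* was at 326, 311 and 319 CPM in RNA against 340, 317 and 358 CPM and at 554, 548 and 485 CPM in RPF against 568, 518 and 603 CPM. These groups overlapped, and the differences were −0.08 (SE 0.11) in RNA and −0.09 (SE 0.11) in RPF. *Fbxl5*, the iron sensor that marks IRP2 for degradation, differed by −0.35 (SE 0.16) in RPF without passing. *Pcbp2*, a chaperone that delivers iron to client proteins, had a TE of −0.28, −0.45 and −0.15 against 0.38, 0.26 and −0.18, a difference of −0.45 (SE 0.14, edgeR unadjusted p = 0.00194, adjusted p = 1). Besides *Ireb2* itself, 0 of the 8 tested genes of this list passed in edgeR or DESeq2.

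Iron transport and hepcidin regulation comprised 33 tested genes, of which 0 passed in RNA, RPF or TE in edgeR or DESeq2, with medians of 0.01, 0.00 and 0.01. *Hamp*, which encodes hepcidin, was at 826, 713 and 794 CPM in RNA of *Ireb2*-/- against 665, 670 and 995 CPM, with overlap and a difference of 0.00 (SE 0.24). *Hamp2*, its paralogue in mice, was at 7.48, 15.8 and 38.0 CPM against 6.53, 5.26 and 6.44 CPM. All knockouts lay above the controls by an amount that varied widely among them, and the difference of 1.70 (SE 0.74) did not pass (edgeR adjusted p = 1).

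*Trf*, which encodes transferrin, the iron carrier of plasma, was at 17189, 20242 and 19790 CPM in RNA against 15892, 15165 and 16953 CPM and had a TE of 0.41, 0.17 and 0.28 against 0.68, 0.61 and 0.57. Its RNA lay higher and its TE lower in every knockout, by 0.25 (SE 0.11) and −0.34 (SE 0.16), while RPF differed by −0.09 (SE 0.15). The TE difference passed only when the 6 ZT12 mice were fitted alone (edgeR adjusted p = 0.00216). *Tfr2*, the second transferrin receptor, differed in RNA by 0.02 (SE 0.11), *Slc39a14*, the importer of iron not bound to transferrin, by 0.19 (SE 0.17) and *Cp*, the ferroxidase ceruloplasmin, by −0.11 (SE 0.13).

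*Smad7*, an inhibitor of the BMP signal that drives hepcidin, was at 11.2, 9.80 and 10.5 CPM in RNA against 14.1, 12.4 and 17.4 CPM, a difference of −0.42 (SE 0.24) that did not pass. *Hfe*, a membrane protein of the hepcidin pathway, was at 32.2, 30.3 and 30.3 CPM in RPF against 24.7, 27.4 and 25.7 CPM, a difference of 0.26 (SE 0.13) that did not pass. *Hpx*, the plasma carrier of free heme, differed by 0.46 (SE 0.17) in RNA with overlapping groups. Of the 23 heme genes and 28 iron-sulfur cluster genes tested, 0 passed in edgeR or DESeq2 with all mice in any readout. The heme transporter *Slc48a1* passed in RPF in edgeR without *Ireb2*+/+ replicate 2. *Flvcr1*, a heme and choline transporter, was at 2.64, 2.78 and 1.97 CPM in RPF against 1.44, 1.28 and 0.83 CPM, and *Cisd2*, an iron-sulfur protein of mitochondria and endoplasmic reticulum, at 27.5, 29.1 and 32.0 CPM against 22.3, 24.8 and 19.1 CPM. Each knockout lay above each control in both, with differences of 1.13 (SE 0.42) and 0.44 (SE 0.15) that did not pass.

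Beyond the lists on iron, the genes with the smallest p that missed the threshold are given for what they were. *Osbpl3*, an oxysterol-binding protein, was at 9.98, 9.26 and 9.83 CPM in RNA of *Ireb2*-/- against 1.51, 2.29 and 3.22 CPM in *Ireb2*+/+. The knockouts were close to each other and well above the controls, with a difference of 2.07 (SE 0.39, edgeR adjusted p = 0.0704) in RNA and 1.20 (SE 0.32) in RPF. It passed in RNA without *Ireb2*+/+ replicate 3 at ZT5. *Aldh1b1*, a mitochondrial aldehyde dehydrogenase, was at 113, 226 and 172 CPM in RPF against 80.9, 84.5 and 81.1 CPM, a difference of 1.05 (SE 0.22, edgeR adjusted p = 0.246). It was among the genes that passed in RNA and RPF without *Ireb2*-/- replicate 1, its lowest knockout liver and the one with acinar mRNAs.

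*Slc22a7*, the organic anion transporter OAT2, was at 38.7, 17 and 30.3 CPM in RPF against 55.2, 69.4 and 83.1 CPM, a difference of −1.27 (SE 0.23, edgeR adjusted p = 0.148), and differed by −1.26 (SE 0.30) in RNA. *Rnf145*, a ubiquitin ligase of cholesterol metabolism, was at 23.4, 28.8 and 29.0 CPM in RPF against 17.8, 12.0 and 11.7 CPM, a difference of 0.99 (SE 0.19, edgeR adjusted p = 0.112). *Zbtb16*, a transcriptional repressor that lies within 10 Mb of *Ireb2*, was at 10.8, 17.3 and 14.3 CPM against 45.9, 23.3 and 39.2 CPM, a difference of −1.36 (SE 0.27, edgeR adjusted p = 0.156). None of these groups overlapped in RPF.

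*Tstd1*, a thiosulfate sulfurtransferase, *B4galt5*, a Golgi galactosyltransferase, and *Ly6e*, a membrane-anchored antiviral protein, differed by 0.77 (SE 0.15), 0.93 (SE 0.19) and 0.74 (SE 0.15) in RPF, with the knockouts higher and no overlap. They did not pass in edgeR with all mice and did so in DESeq2, which counted 6 genes in RNA and 20 in RPF. Among those 20 were also *Aldh1b1*, *Slc22a7*, *Rnf145*, *Zbtb16*, *Scd2* and 6 *Mup* genes. In edgeR without *Ireb2*-/- replicate 1, *Ly6e*, *B4galt5*, *Slc22a7* and *Rnf145* passed in RPF, and without both mice with acinar mRNAs *Ly6e*, *Slc22a7* and *Rnf145* did.

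In the pathways of hepatic metabolism no list member other than *Abcd2* passed in edgeR with all mice. Without *Ireb2*-/- replicate 1, the desaturase *Scd2* and the cytochrome P450 *Cyp2c55* passed in RPF, and without both mice with acinar mRNAs these 2 passed in RPF and *Scd1*, another desaturase, in RNA. Lipogenesis had 5 of 21 tested genes higher at an unadjusted p under 0.05 in RPF, against 4.52% of all genes, and a median of 0.08. *Scd2*, a fatty acid desaturase, was at 63.0, 110.7 and 97.2 CPM in RPF against 44.4, 46.1 and 41.3 CPM, a difference of 1.04 (SE 0.24, edgeR adjusted p = 0.320). *Fads2*, which desaturates polyunsaturated fatty acids, was at 779, 940 and 1116 CPM in RPF against 727, 743 and 751 CPM, a difference of 0.35 (SE 0.12). In both genes the knockout livers all lay above the controls, with replicate 1 the closest to them.

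In the list of cholesterol synthesis and uptake the medians of 27 genes were 0.17 in RNA and 0.13 in RPF. No member passed in edgeR in either readout, and in each of them 2 genes were higher and 1 was lower at an unadjusted p under 0.05. Of all genes 2.47% were higher and 1.74% lower at that level in RNA, and 4.52% and 3.1% in RPF. In bile acid synthesis and transport 4 of 21 genes were lower in RNA at an unadjusted p under 0.05, against 1.74% of all genes. *Cyp7b1*, an enzyme of the acidic bile acid pathway, was at 345, 473 and 279 CPM in RPF against 661, 792 and 480 CPM, a difference of −0.82 (SE 0.25, edgeR adjusted p = 0.465) with no overlap by a small margin.

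Markers of the 2 ends of the liver lobule had small medians of opposite sign. Of 14 pericentral markers 12 lay below 0 in RNA (49.5% of all genes), with a median of −0.20, and 1 was lower at an unadjusted p under 0.05 (1.74% of all genes). Their summed RNA level was 12494, 7675 and 12100 CPM in *Ireb2*-/- against 12582, 11284 and 13149 CPM in *Ireb2*+/+, so that replicate 2 of the knockout stood below all others and the remaining knockouts lay within the controls. In RPF that liver was at 14610 CPM, against 21448 to 23991 CPM in the controls. The RPF median of the list was −0.22, with 4 of 14 lower (3.1% of all genes) and 1 higher (4.52% of all genes) at an unadjusted p under 0.05. The RPF differences of its members ranged from −0.51 to 0.60. At ZT5 the medians were −0.24 in RNA and −0.18 in RPF, where 6 were lower without overlap (6.23% of all genes). *Ahr*, the aryl hydrocarbon receptor, was at 29.9, 33.8 and 45.9 CPM in RNA against 55.2, 46.4 and 67.7 CPM, a difference of −0.62 (SE 0.17) that did not pass. Of 14 periportal markers 10 lay above 0 in RNA, against 50.5% of all genes, with a median of 0.19, and 4 were higher at an unadjusted p under 0.05, against 2.47% of all genes. The other 4 markers lay below 0, down to −0.46. The summed level of the list overlapped between the genotypes. It was 7463 to 9635 CPM in *Ireb2*-/- against 8026 to 9521 CPM in *Ireb2*+/+ in RNA, and 14034 to 17496 against 15169 to 17159 CPM in RPF. *Gls2*, the liver glutaminase, was at 448, 525 and 709 CPM in RNA against 398, 409 and 389 CPM, a difference of 0.49 (SE 0.14) that did not pass.

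*Ass1*, an enzyme of the urea cycle that is also on the periportal list, was at 441, 472 and 600 CPM in RNA against 430, 373 and 317 CPM, a difference of 0.43 (SE 0.16) without overlap. Of the 20 genes for the urea cycle and nitrogen handling, 18 lay above 0 in RPF with a median of 0.19, against 54.8% of all genes that lay above 0. The 12 hepatocyte markers had medians of 0.04 in RNA and 0.05 in RPF, while their summed level was higher in every knockout, with 163244 to 185121 against 145578 to 157122 CPM in RNA and 246706 to 293644 against 220718 to 241568 CPM in RPF. *Alb* and *Ttr*, which encode the plasma proteins albumin and transthyretin, differed by 0.33 (SE 0.12) and 0.32 (SE 0.13) in RNA without passing.

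The 18 clock genes had medians of −0.04 in RNA and −0.21 in RPF, and 0 passed in edgeR or DESeq2 or had an unadjusted p under 0.05 in edgeR in any readout. Chaperones of the endoplasmic reticulum had a median of −0.12 in RPF, with 18 of 24 genes below 0 (45.2% of all genes) and 6 lower without overlap (4.72% of all genes), among them *Canx* with −0.24 (SE 0.10) and *Dnajc3* with −0.32 (SE 0.12). Kupffer cell markers had a median of −0.01 in RNA and 0.21 in RPF, where 14 of 17 lay above 0 (54.8% of all genes) and 2 were higher (4.52% of all genes) and 1 lower (3.1%) at an unadjusted p under 0.05. Their summed RPF level was 863, 1455 and 1040 CPM in *Ireb2*-/- against 877, 1130 and 992 CPM in *Ireb2*+/+, with replicate 2 of the knockout above all others and the groups overlapping. The same liver was the highest in the summed level of 25 acute phase genes, plasma proteins made in inflammation, with 36552 CPM in RNA against 25968 to 29508 CPM in the other ZT12 livers and 66661 against 43432 to 49811 CPM in RPF. None of these markers passed in edgeR.

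**Figure D5:**
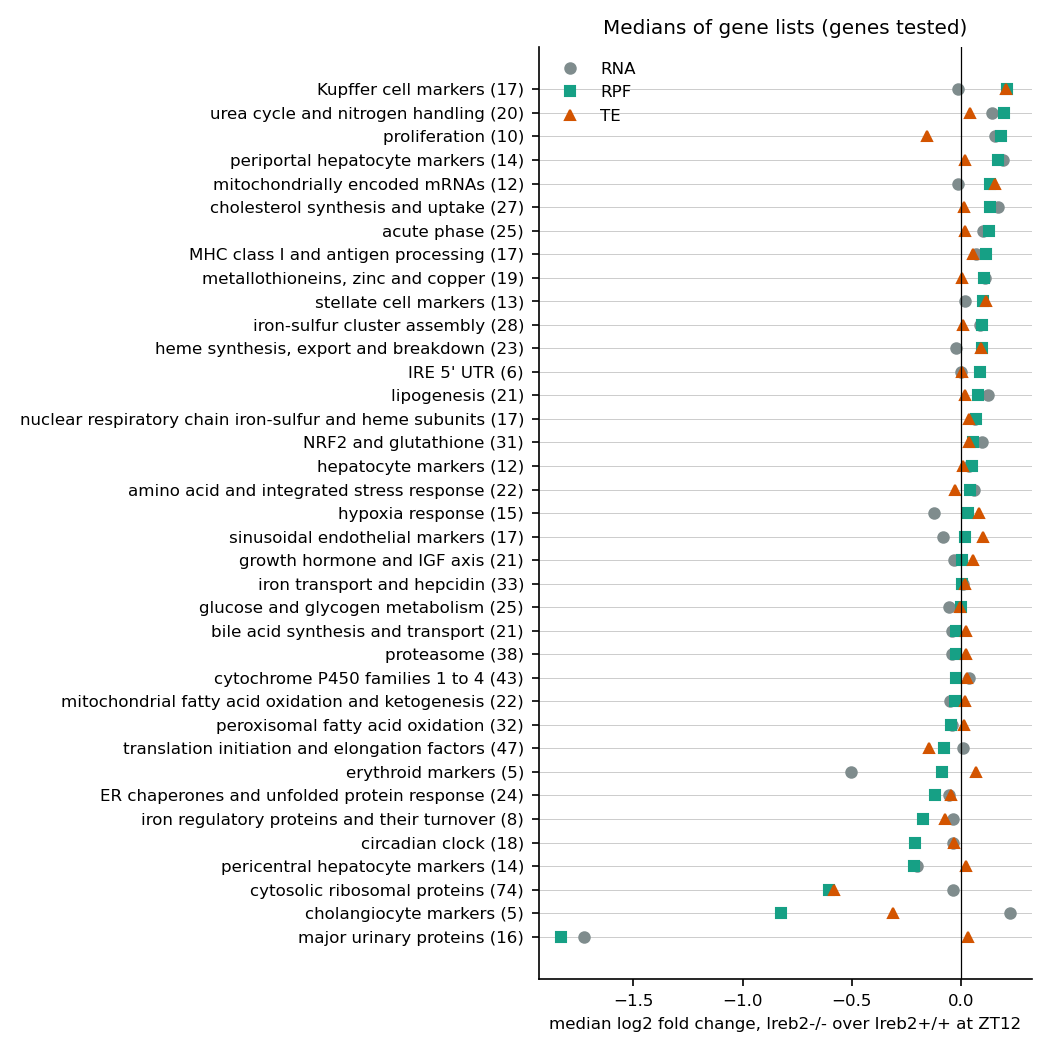
Median log2 fold change of *Ireb2*-/- over *Ireb2*+/+ at ZT12 in RNA (grey circles), RPF (green squares) and TE (orange triangles) for each list with at least 5 tested genes, with the number tested in brackets and without the acinar markers. Most medians lie near 0, the major urinary proteins lie far below it in RNA and RPF, and the ribosomal proteins lie at −0.61 in RPF and −0.58 in TE but at −0.04 in RNA.

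Whether these effects differed from those at ZT5 was tested directly as the genotype effect at ZT12 minus that at ZT5. In edgeR 0 genes passed in RNA, 0 in RPF and 0 in TE, with 413 (3.86%), 426 (3.98%) and 562 (5.25%) at an unadjusted p under 0.05, and DESeq2 likewise counted 0 in each, with 198, 313 and 256. *Abcd2* differed by 0.63 (SE 0.22) in RPF and *Mup12* by −0.74 (SE 0.40) in RNA between the timepoints, neither past the threshold. In these fits no gene's effect of genotype at ZT12 was shown to differ from that at ZT5.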

How the data were processed

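The authors trimmed and filtered the reads, removed those from rRNA and tRNA, aligned the remainder to the mouse genome and deposited raw counts for each gene in each sequencing run. The submitters' processing notes name cutadapt 3.5, Bowtie2 and STAR 2.70f. The counting tool and its strand setting are not given in the sources used here, so overlapping and antisense genes cannot be told apart. The count columns are unnamed, and which held the 5′ UTR, CDS and 3′ UTR was inferred from their values, with 1 left unidentified. CDS columns held 58.8 to 63.8% of RNA and 93.2 to 95.6% of RPF counts.

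Runs of a library were summed and CDS counts used. Genes were kept by filterByExpr (minimum count 10, minimum total 15), which left 10696 of 25266. Libraries were scaled by the upper quartile and tested by edgeR 4.0.16 quasi-likelihood (R 4.3.3), with the 12 mice of the line sharing the spread and, for TE, a term for the mouse. *Mybphl* and *Igip* had no counts in 1 kind of library and were not tested there. Standard errors were obtained from the fold change and the F statistic (absolute value over root F), CPM values used for TE have a prior count of 0.5, and the interval named for ferritin is 2 standard errors either side. The livers of a group were not 1 library deposited repeatedly, with chi-square values of 2.92 to 18.9 per degree of freedom between them. The tests were checked on simulated data. Alternatives were TMM, DESeq2 1.42.0, limma 3.58.1 on TE, other filters, first runs alone, all columns, a block for the replicate number, unpaired libraries, only the 6 ZT12 mice, and each mouse left out.

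Members and lists were chosen with earlier results of these data known. The rule named every IRE, IRP and iron transport gene, all genes past the threshold, the 5 higher and 5 lower genes with the smallest p in each readout, and up to 4 of each other list, without predicted genes. The text gives a part of these, some named genes are not reported here, and members of the ribosomal protein and *Mup* lists beyond them were chosen after their values were seen.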

Additional observations from a re-analysis of the deposited data

Results flagged for a closer look

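In 4 results of single genes, all livers of 1 genotype lay on opposite sides of the other at ZT12 and ZT5. At ZT12 alone, the groups did not overlap for 9.77% of all genes in RNA and 9.72% in TE. How many of all genes changed sides in this way was not counted. The difference between the timepoints was fitted in edgeR and did not pass for any of these 4 results. The TE of *Hamp* (hepcidin) was higher in *Ireb2*-/- at ZT12 by 0.22 and lower at ZT5 by −0.17, a difference of 0.39 (SE 0.12, edgeR adjusted p = 0.886). The RNA of *Fgfr4*, the hepatocyte receptor for FGF15, was higher at ZT12 by 0.32 and lower at ZT5 by −0.48, a difference of 0.80 (SE 0.25, edgeR adjusted p = 0.981). The TE of *Eef1g* was lower at ZT12 by −1.03 and higher at ZT5 by 0.80, a difference of −1.83 (SE 0.44, edgeR adjusted p = 0.295). The TE of *Sdha*, the flavoprotein subunit of succinate dehydrogenase, was higher at ZT12 by 0.09 and lower at ZT5 by −0.11, a difference of 0.20 (SE 0.12, edgeR adjusted p = 0.946).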

How the results depend on the processing

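With other settings, the genes past the threshold numbered 6 in RNA by DESeq2, 1 with a mean count of at least 50 and 1 with counts over all columns, against 2. In RPF they numbered 20 by DESeq2, 6 with first runs alone and 1 with only the 6 ZT12 mice, against 3. In TE they numbered 1 without a filter on low counts, 1 with all columns and 19 with only the 6 ZT12 mice, against 0. TMM changed no count. Leaving out 1 mouse gave 2 to 4 genes in RNA, 3 to 18 in RPF and 0 to 5 in TE. The RPF count was highest without *Ireb2*-/- replicate 1 (18) and was 8 without *Ireb2*+/+ replicate 2, 6 without *Ireb2*-/- replicate 2 and 5 without *Ireb2*+/+ replicate 1, and the RNA count was 4 without *Ireb2*+/+ replicate 3. Without both mice with acinar mRNAs, an alternative chosen after seeing the data, the counts were 9, 16 and 1. *Ireb2* RPF lay at −0.98 with only the 6 ZT12 mice and did not pass there. *Ireb2* TE passed in edgeR without a filter (adjusted p = 0.0326), with all columns (0.0330), with only the 6 ZT12 mice (3.51e-05), without *Ireb2*+/+ replicate 3 at ZT5 (7.65e-06), without both mice with acinar mRNAs (0.0177), without *Ireb2*-/- replicate 3 (0.0448), without *Ireb2*+/+ replicate 1 at ZT5 and with the replicate block (0.0236). For the difference between timepoints, 1 gene passed in TE without a filter, and leaving out 1 mouse gave 0 to 6, with 6 without *Ireb2*+/+ replicate 3 and 4 without *Ireb2*+/+ replicate 2 at ZT5. The cause of these shifts was not tested.

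Replicate numbers are shared by the genotypes. The deviations of same-numbered mice at ZT12 correlated at 0.009 to 0.158 in RNA and −0.0096 to 0.165 in RPF. These low values do not show a pairing of the mice, but with 3 mice a group they cannot exclude one. The main fits did not use the replicate numbers. As a replicate block they gave 17 genes in RNA, 39 in RPF and 5 in TE, the latter with the elongation factors *Eef1a1* and *Eef2*, and 19, 10 and 1 for the difference between timepoints. Of the 19 and 10, 7 and 3 were on the list of acinar markers, and others, such as *Ctrl* and *Clps*, are also enzymes or cofactors of the exocrine pancreas, whose mRNAs were high in 2 mice. Of the 3 ZT12 pairs, 1 had its best match in its own number.

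Of 9690 values of single genes under alternatives, 9611 kept their direction and side of the threshold where they were called, 75 passed anew, 4 no longer passed and 0 called values reversed, and 574 uncalled values changed sign. Of 1946 list medians, 24 moved by more than the spread between replicates. At these depths, with 3 livers a side and a median standard error of 0.21 to 0.30, small differences were not detectable.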
